A study of Mus musculus with 22 samples.

Results

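The genes for cytosolic ribosomal proteins were followed across the translatomes of 6 cell types of the mouse brain, that is, across the mRNAs pulled down with ribosomes from each cell type. Members were the genes with a protein-coding transcript whose symbol is Rpl or Rps followed by a number, Rplp0 to Rplp2, or Rpsa, with the Rps6k kinases left out. This rule found 86 of the 55385 genes in the tables, 52 with symbols of the large subunit and 34 with symbols of the small subunit. A total of 21804 genes had a protein-coding transcript. Rps19bp1 matches the rule by its symbol, although it encodes a binding partner of Rps19 and not a ribosomal protein. Fau and Rack1, which encode proteins of the ribosome under other names, are described separately.

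A cytosolic ribosome joins a large subunit, which forms peptide bonds, to a small subunit, which reads the mRNA, and each subunit holds ribosomal RNA and one copy or a few copies of each of its proteins. The mRNAs of these proteins are among the most abundant of a cell, and most begin with a run of pyrimidines after an initial C, the 5′ terminal oligopyrimidine (TOP) tract, through which mTOR signalling and La-related protein 1 control their translation together. Some members have a paralog that can take their place in the ribosome, and Rpl22 and Rpl22l1 are a pair of this kind: the Rpl22 protein is known to bind the Rpl22l1 mRNA and to lower its level.

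The ribosomes were recovered through Rpl22 itself. All mice carried 1 RiboTag allele, which replaces the last exon of Rpl22 with a version encoding a hemagglutinin (HA) tag once Cre recombinase is present, and 1 unmodified allele (Rpl22 Fl/+, strain B6N.129-Rpl22tm1.1Psam/J), and all carried a Cre transgene and were 6 weeks old. Rbp4-cre marked both the dentate gyrus granule cells, taken from hippocampus, and the layer V cortical neurons, taken from cortex. Cerebellar granule cells came from cerebellum with Gabra6-cre, inhibitory interneurons from hippocampus with Dlx6a-cre, astrocytes from cortex with Aldh1-cre, and microglia from cortex with Tmem119-cre. Both glial lines are given in the study's methods as tamoxifen-inducible (Aldh1l1 and Tmem119 Cre-ERT2 alleles), and the neuronal lines are not, so tamoxifen and glial type cannot be told apart. An interneuron library pooled the tissue of 2 mice. Each cell type had 3 replicates, and 4 replicates (dentate gyrus 3, layer V 1, cerebellar granule 3 and astrocyte 2) were sequenced in both of the study's batches, so 22 libraries gave 18 replicates, for which the batch 1 library was used where there were 2. A Cre line marks every cell in which its driver has been active, and no untagged or input library was analysed here, so that the amount of an mRNA and its loading on ribosomes cannot be told apart.

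The 18 libraries held 38270477 to 71440915 estimated counts, and the microglia and the interneurons were sequenced only in batch 2. Markers followed the labels: the microglial markers summed to 23270 to 25166 TPM (a share of the library's transcripts, corrected for their length) in microglia and to at most 110 TPM elsewhere, the astrocyte markers to 7865 to 8192 TPM in astrocytes, the interneuron markers to 9266 to 10214 TPM in interneurons and the cerebellar granule cell markers to 7274 to 7317 TPM in cerebellar granule cells. The exception was layer V, whose markers summed to 216 to 220 TPM there. They summed to 237 to 263 TPM in the dentate gyrus granule cells, which share the Cre driver, and to 164 to 224 TPM in the interneurons, which do not. The single layer V markers differed. Fezf2 averaged 85.5 TPM in layer V and at most 20.5 TPM in any other type. Bcl11b was highest in the dentate gyrus (159.5 TPM, against 34.3 TPM in layer V), and Rbp4 and Parm1 were highest in interneurons. Among markers of cells that were not labelled, the 6 of oligodendrocytes summed to 2855 to 3059 TPM in interneurons and to 551 to 1212 TPM in glia, with all 6 above 0 in every cell type, and the 4 of endothelial cells to 258 to 382 TPM in microglia against at most 55 TPM elsewhere. Ttr, a choroid plexus gene, was high in astrocyte replicate 1, where the choroid plexus markers summed to 3645 TPM against 5.6 and 12.2 TPM in replicates 2 and 3. The 4 neuronal markers summed to 748 to 986 TPM in astrocytes and to 351 to 392 TPM in microglia. In the neuronal libraries they summed to 3114 to 12801 TPM. The part of neuronal mRNA in the glial values was not tested. For layer V replicate 1 the labels of the 2 batches name different sexes, while the sex-linked transcripts of its 2 libraries were alike.

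The summed level of the 86 genes was highest in microglia and lowest in cerebellar granule cells. The members took 6.44%, 6.39% and 6.29% of all TPM in the 3 microglia libraries and 2.19%, 2.15% and 2.12% in the cerebellar granule cell libraries. The remaining libraries lay between 2.94% and 3.86%, so neither extreme overlapped with any other cell type. In a bulk library fewer cells of a type and less RNA per cell cannot be told apart, and each level is a share of the library's own mRNA.

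By type, the members held 6.37% ± 0.08 of TPM in microglia (SD, n = 3 here and in what follows), 3.496% ± 0.37 in dentate gyrus granule cells, 3.28% ± 0.05 in layer V neurons, 3.13% ± 0.06 in astrocytes, 3.06% ± 0.10 in interneurons and 2.15% ± 0.03 in cerebellar granule cells. The microglial level was 2.04 times that of astrocytes, the other glial type, and 2.97 times that of cerebellar granule cells. Within the middle of this order the neighbours were close: the dentate gyrus libraries (3.12%, 3.86% and 3.504%) spanned the values of layer V (3.23%, 3.33% and 3.27%), and the astrocytes (3.06%, 3.15% and 3.17%) overlapped with the interneurons (2.94%, 3.09% and 3.13%). The second libraries of the 4 replicates sequenced again in batch 2 gave 3.49% for dentate gyrus 3, 3.19% for layer V 1, 2.10% for cerebellar granule 3 and 3.15% for astrocyte 2, each close to its batch 1 value.

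**Figure D1:**
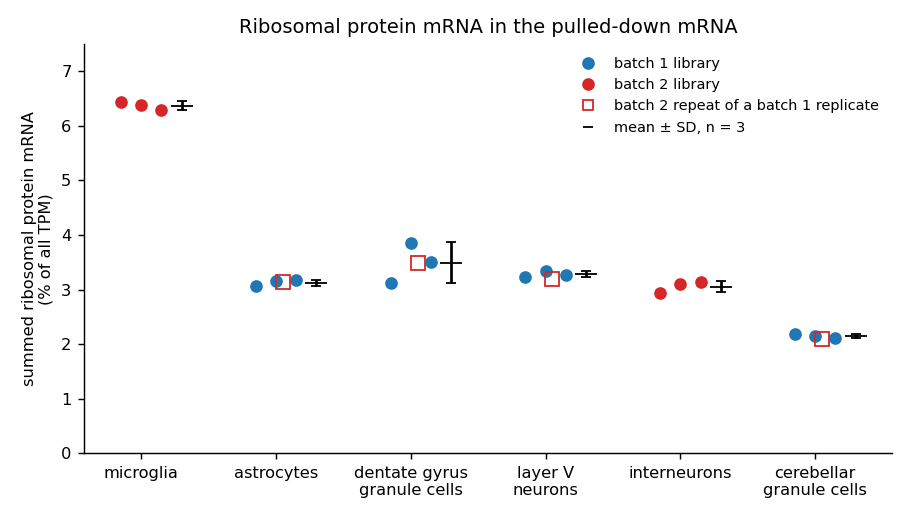
Summed level of the 86 ribosomal protein genes as a percent of all TPM, by cell type, with filled points for the libraries used (blue, batch 1; red, batch 2), open squares for the batch 2 repeats and the mean and SD of the 3 replicates in black. The 3 microglia libraries sit between 6.29% and 6.44% and the cerebellar granule cell libraries between 2.12% and 2.19%, apart from the other 4 cell types.

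The balance of the subunits followed the same extremes. The summed TPM of the large-subunit genes was 1.24 ± 0.01 times that of the small-subunit genes in microglia and 1.62 ± 0.01 times in cerebellar granule cells. The other types lay between, at 1.47 ± 0.01 in astrocytes, 1.48 ± 0.01 in dentate gyrus granule cells, 1.54 ± 0.01 in layer V neurons and 1.58 ± 0.02 in interneurons. The mitochondrial mRNA, given here as a general property of the libraries, took 1.3% to 1.9% of TPM in microglia, 1.8% to 2.4% in astrocytes and 0.20% to 0.25% in cerebellar granule cells, and its part in the result was not tested.

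Most members shared the pattern of their sum. Of the 86, 83 averaged at least 1 TPM over the libraries and 77 over 100 TPM. Those below 1 TPM were Rpl3l, Rpl10l and Rpl39l, of which Rpl3l and Rpl10l are known from muscle and testis. The most abundant members per length were Rps24 (mean 986 TPM), Rps29 (965 TPM), Rpl19 (863 TPM), Rplp1 (860 TPM) and Rps15 (860 TPM). Of the 83, 77 had their highest mean in microglia and 72 their lowest in cerebellar granule cells. The exceptions at the top were Rpl22l1, Rpl38 and Rps19bp1 in layer V, Rpl5 and Rpl7l1 in cerebellar granule cells, and Rpl3 in the dentate gyrus. Between the highest and the lowest cell type the members differed by a median of 2.801-fold, from 1.25-fold for Rpl24 to 9.16-fold for Rps12, and 77 of the 83 differed at least 2-fold.

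The libraries of a cell type often stood wholly apart. For 68 of the 83 members all 3 microglia libraries lay above all 15 other libraries, where 18.9% of all genes tested did so, and for 67 all 3 cerebellar granule cell libraries lay below the other 15, where 18.1% of all genes did. In the opposite directions the counts were 1 of 83 for microglia, Rpl22l1 (15.4% of all genes), and 0 for cerebellar granule cells (15.6%). Layer V neurons stood above the rest for 1 member, Rps19bp1 (5.31% of all genes), and below for 4, Rpl7, Rpl7l1, Rpl18 and Rplp0 (8.28%), and astrocytes below for 1, Rpl36al (7.89%), and above for none (10.4%). Dentate gyrus granule cells stood apart for none (8.53% of all genes above and 1.76% below), and interneurons for none (10.2% and 0.848%).

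Rps12 (ENSMUSG00000061983.7, chr10:23785183-23787275, minus strand, GRCm38), a small-subunit protein, had the widest range of the members at 1 TPM or more. It was at 1178, 1243 and 1192 TPM in microglia, 304, 289 and 289 in astrocytes, 277, 319 and 279 in dentate gyrus granule cells, 262, 258 and 238 in layer V neurons, 234, 250.5 and 231 in interneurons, and 122, 131 and 141 in cerebellar granule cells. The microglia libraries were more than 3 times as high as any other, and the cerebellar libraries lay below all others.

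Rps29, a zinc-binding protein of the small subunit, was higher still in level. It reached 2757, 2523 and 2637 TPM in microglia, against 689.8, 745 and 775 in astrocytes, 649, 768 and 794 in dentate gyrus granule cells, 709, 749 and 782 in layer V neurons, 557, 621 and 609 in interneurons, and 337, 353 and 316 in cerebellar granule cells. Astrocytes, dentate gyrus granule cells and layer V neurons overlapped, and the interneurons lay below them. Rps9, which is placed early in the assembly of the small subunit, was at 1614, 1605 and 1543 TPM in microglia, 558, 566 and 575 in astrocytes, 451, 509 and 484 in dentate gyrus granule cells, 392, 426 and 424 in interneurons, 371, 366 and 365 in layer V neurons, and 326, 312 and 319 in cerebellar granule cells. For Rps9 both glial types lay above every neuron library, the astrocytes by a small margin.

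The acidic stalk of the large subunit, which recruits the translation factors, is built of Rplp0, Rplp1 and Rplp2. Rplp1 was at 1840.0, 1825 and 1826 TPM in microglia and at 327, 307 and 292 in cerebellar granule cells, with the other libraries between 649 and 889. Rplp0, which anchors the stalk, was at 456, 445 and 439 TPM in microglia, but its cerebellar libraries (221, 213 and 209 TPM) lay above those of layer V neurons (164, 172 and 167 TPM). The stalk genes Rplp0 and Rplp1 thus shared the microglial maximum and not the cerebellar minimum.

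To compare the cell types, edgeR was fitted to the estimated counts of 20524 genes with sufficient counts, Rpl10l being the 1 member left out (0 TPM in all libraries except 0.044 TPM in layer V replicate 3). Each cell type was set against the mean of the other 5, and the 2 glial types against the 4 neuronal types, with adjusted p at most 0.05 as the threshold over all genes. In microglia 81 of 85 members were higher and 2 lower, where 43.4% of all genes tested were higher and 37.6% lower. The median log2 fold change of the members was 1.16, against 0.09 over all genes, and 55 members rose by at least 1 on the log2 scale, where 29% of all genes did.

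The members that rose most in microglia, apart from the rare Rpl39l, belonged to the small subunit. Rps12 rose by 2.50 ± 0.04 (log2, SE; edgeR adjusted p = 3.93e-20), Rps29 by 2.28 ± 0.05, Rps9 by 2.05 ± 0.04 and Rps27 by 2.03 ± 0.06. In the stalk, Rplp1 rose by 1.67, Rplp2 by 1.57 and Rplp0 by 1.30, and Rpsa, the laminin receptor homolog of the small subunit, by 0.91. All 34 small-subunit genes but Rps19bp1 rose, with a median of 1.27 over the 34, and 48 of 51 large-subunit genes rose, with a median of 1.06. Rpl39l rose by 5.32 ± 0.67, although it stayed at or below 2.4 TPM in every library. The 2 members that fell were Rpl22l1 (−0.79 ± 0.05, adjusted p = 1.69e-10) and Rpl5 (−0.20 ± 0.05, adjusted p = 7.19e-04), and Rpl3l and Rps19bp1 did not pass.

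The microglial difference was present against astrocytes alone, with 80 members higher and 1 lower (36.3% and 39.8% of all genes) and a median of 0.87. Within batch 2, which held 3 libraries each of microglia and interneurons and 1 of each other type, 81 members were higher and 2 lower in microglia (41.4% and 34.1% of all genes), with a median of 1.12. The endothelial markers were also higher in the microglia libraries than elsewhere, and their part in the result was not tested.

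Cerebellar granule cells showed the reverse. In them 3 members were higher and 79 lower, where 36% of all genes tested were higher and 46.1% lower. The median was −0.85 for the members and −0.27 for all genes. When libraries were scaled by their totals alone, the median of all genes in this comparison moved to −0.43, so genes at large were lower too, by less than the members. Rplp1 fell by 1.58 ± 0.06 on the log2 scale (adjusted p = 1.83e-14), Rps12 by 1.57 ± 0.05 and Rps29 by 1.55, and Rplp0 by only 0.17. The 3 members that rose were Rpl5 (0.63), Rps15a (0.60) and Rpl7l1 (0.33). Against dentate gyrus granule cells, the other granule cell type, 75 members were lower and 3 higher (40.8% and 33.1% of all genes). Within batch 1 alone 77 of 84 members were lower (45.5% of all genes), and within batch 2 alone 77 of 85 (32.9%), where cerebellar granule cells had 1 library, a repeat of replicate 3, and were assumed to vary like the groups with 3.

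Interneurons had lower levels of most members, by a smaller amount, against a mean of the other cell types that included microglia. Their summed level (3.06%) was close to that of astrocytes (3.13%) and above that of cerebellar granule cells (2.15%). It was below the means of layer V neurons (3.28%) and dentate gyrus granule cells (3.496%). For 0 of 83 members did all interneuron libraries lie below the rest. Interneurons were not compared with microglia left out. In interneurons 72 members were lower and 2 higher (32.2% and 35.1% of all genes), with a median of −0.41 against −0.02 over all genes. Rps27l (−0.95 ± 0.10) and Rps29 (−0.69 ± 0.07) fell most, and Rpl22l1 (0.27 ± 0.05) and Rpl3l (1.27 ± 0.37, at most 0.79 TPM in any library) rose. With libraries scaled by their totals alone 58 members were lower and 4 higher, the members' median was −0.27 and that of all genes moved from −0.02 to 0.12. The interneuron libraries had the highest oligodendrocyte markers, whose part in the result was not tested, and all 3 were sequenced in batch 2, in which 73 members were lower and 2 higher (27.4% and 30.9% of all genes).

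In the remaining cell types the members moved in both directions. Layer V neurons had 32 higher and 17 lower (37.8% and 35.4% of all genes), and dentate gyrus granule cells 13 higher and 36 lower (35.3% and 31.4%). Astrocytes had 39 higher and 12 lower (40.2% and 33% of all genes), a split that became 28 and 19 with libraries scaled by their totals alone. The counts called higher were near the background in layer V neurons and astrocytes and below it in the dentate gyrus. The medians were 0.07 in layer V neurons, −0.11 in the dentate gyrus and 0.10 in astrocytes. Because each type was compared with the mean of the other 5, microglia included, the counts depend on which types stand on the other side: within batch 1, which held no microglia or interneurons, 67 members were higher in astrocytes (45.9% of all genes), 55 in layer V (38.2%) and 27 in the dentate gyrus (33.9%).

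Single members stood out in these types. In layer V neurons Rpl22l1 rose by 0.84 ± 0.05 and Rpl38, a large-subunit protein with a known role in the translation of Hox mRNAs, by 0.59. Rpl38 was at 822, 847 and 836 TPM in layer V and at 843, 809 and 831 in microglia, against 408 to 705 TPM in the other 12 libraries, so both types stood above the rest and overlapped with each other. In dentate gyrus granule cells Rpl5 (0.47 ± 0.05) and Rpl3 (0.43 ± 0.05), which lies near the peptidyl transferase centre, rose most. Rpl3 was at 722, 872 and 737 TPM there, which overlapped with microglia (726, 709 and 670.0 TPM) and lay above the other 12 libraries. In astrocytes Rps27l (1.13 ± 0.08) and Rpl22 (0.63 ± 0.04) rose most, and Rps15a (−0.71 ± 0.05) and Rpl36al (−0.54 ± 0.05) fell most. With effective length as an offset Rps15a was 0.26 in astrocytes, the opposite direction.

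Taken as glia against neurons, 78 members were higher and 3 lower, where 46.8% of all genes were higher and 36.4% lower, and 20 rose by at least 1 on the log2 scale (30.3% of all genes). The median was 0.81 for the members and 0.18 for all genes. The 5 that rose most were Rps27l (1.79 ± 0.07), Rps12 (1.71 ± 0.03), Rps27 (1.55 ± 0.05), Rps29 (1.53 ± 0.05) and Rps9 (1.49 ± 0.03). Rps27a, which is made as a fusion with ubiquitin, rose by 0.76, and Rpl22 by 0.85 ± 0.03. Rpl22l1 (−0.55 ± 0.04), Rpl5 (−0.39 ± 0.04) and Rps15a (−0.34 ± 0.04) fell, while Rpl3l, Rpl39l, Rps19bp1 and Rps27rt did not pass.

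The 2 glial types did not contribute equally. Microglia alone against the 4 neuronal types gave 80 members higher and 2 lower (45.1% and 37.2% of all genes), with a median of 1.26, and astrocytes alone gave 65 higher and 4 lower (43% and 34.1%), with a median of 0.34. Against layer V neurons, the neurons of the same tissue, the astrocytes had 26 members higher and 20 lower (39% and 38.2%), with a median of −0.01.

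**Figure D2:**
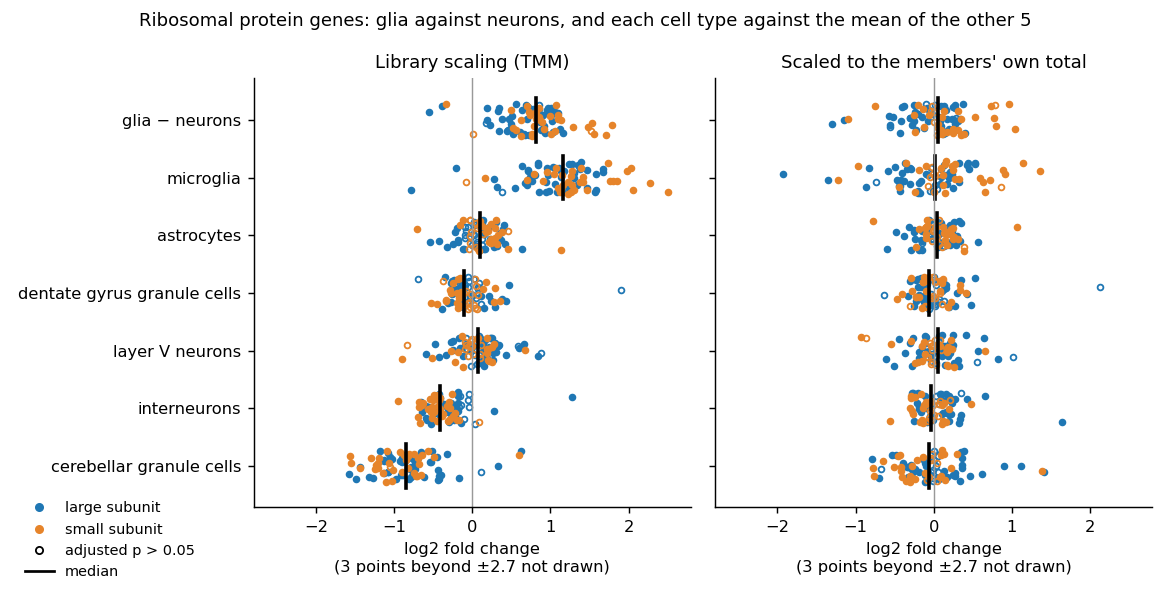
Log2 fold change of each of 85 members in glia against neurons and in each cell type against the mean of the other 5, with a point for each member (blue, large subunit; orange, small subunit; open, adjusted p over 0.05) and a bar at the median. With libraries scaled as a whole (left), the medians are 1.16 in microglia and −0.85 in cerebellar granule cells. With each library scaled to the summed counts of the members (right), points lie on both sides of 0 by construction.

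To ask how the members stood relative to each other, each library was scaled to the members' own summed counts, which by construction puts members on both sides of 0. On this scale there were 38 higher and 30 lower in microglia (20.6% and 62.7% of all genes on the same scale) and 26 higher and 37 lower in cerebellar granule cells (53.5% and 28.8%). Within the pool of microglia, Rps12 was up by 1.36 ± 0.04 and Rps29 by 1.14, while Rpl22l1 was down by −1.93 ± 0.06, Rpl5 by −1.35 ± 0.07 and Rps15a by −0.97. In cerebellar granule cells Rpl5 (1.41 ± 0.06) and Rps15a (1.39 ± 0.04) took a larger share of the pool and Rplp1 (−0.79 ± 0.04) and Rps12 (−0.78 ± 0.04) a smaller one. Of the small-subunit genes, 19 gained and 7 lost share in microglia, with a median of 0.13, and of the large-subunit genes 19 gained and 23 lost, with a median of −0.08. In glia against neurons the split was 40 and 30 (28.2% and 55.5% of all genes), led by Rps27l (1.04 ± 0.07) and Rps12 (0.96 ± 0.03) at one end and Rpl22l1 (−1.30 ± 0.04) at the other.

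The pair of Rpl22, the protein that carried the tag, and Rpl22l1 differed between glia and neurons. Rpl22 (ENSMUSG00000028936.15) lies at chr4:152325742-152334071 on the plus strand and Rpl22l1 (ENSMUSG00000039221.10) at chr3:28805436-28807424 on the plus strand (GRCm38). Their coding sequences hold 387 and 366 bases and are identical at 73.3% of 363 aligned bases. Matching stretches are shown because the question whether short reads can tell the 2 mRNAs apart rests on them. They were read from the genome along the coding exons of Rpl22-201 (146 bases, chr4:152330058-152332354, an intron left out) and Rpl22l1-206 (142 bases, chr3:28806791-28807260, an intron left out), with the longest identical run, of 26 bases, in capitals:
Rpl22: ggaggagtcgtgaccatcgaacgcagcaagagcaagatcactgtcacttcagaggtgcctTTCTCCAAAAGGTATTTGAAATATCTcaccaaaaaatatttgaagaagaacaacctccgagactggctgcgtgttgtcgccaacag
Rpl22l1: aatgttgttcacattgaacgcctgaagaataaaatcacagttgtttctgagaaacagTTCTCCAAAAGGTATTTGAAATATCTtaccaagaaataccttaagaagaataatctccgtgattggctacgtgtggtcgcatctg
The 2 coding sequences shared 0 words of 31 bases, the length by which kallisto matches reads by default.

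Rpl22 was at 486, 484 and 466 TPM in microglia, 308, 297 and 301 in astrocytes, 168, 188 and 229 in dentate gyrus granule cells, 140.2, 152 and 191 in layer V neurons, 176, 140.4 and 192 in interneurons, and 126, 110.0 and 118 in cerebellar granule cells. Both glial types lay above every neuron library, and the neuronal types other than cerebellar granule cells overlapped. Rpl22l1 ran the other way, at 123, 119 and 122 TPM in microglia, 169, 203 and 169 in astrocytes and 181, 174 and 178 in cerebellar granule cells. The dentate gyrus libraries held 250.1, 283 and 266 TPM of it, layer V neurons 306, 331 and 323, and interneurons 278, 311 and 312. It was the 1 member whose microglia libraries lay below all 15 others. In cerebellar granule cells both genes were below their levels in the other neurons.

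As a percent of the summed TPM of the pair, Rpl22l1 held 20.2% ± 0.5 in microglia, 37.3% ± 2.8 in astrocytes, 57.9% ± 3.6 in the dentate gyrus, 60.2% ± 1.1 in cerebellar granule cells, 66.7% ± 3.3 in layer V and 64.0% ± 4.3 in interneurons. Each glial library thus held more Rpl22 than Rpl22l1 and each neuron library more Rpl22l1 than Rpl22. The repeats in batch 2 gave 39.8% for astrocyte 2, 53.9% for dentate gyrus 3, 60.6% for cerebellar granule 3 and 68.7% for layer V 1. The log2 ratio of Rpl22l1 over Rpl22 differed by −2.08 between glia and neurons (two-sided p = 5.39e-05 by exact permutation of the libraries, which is the lowest p this design allows, and 0.00264 adjusted over 49 paralog comparisons). Between microglia and the other 5 types it differed by −2.41 (exact permutation p = 0.00123, again the lowest possible, and 0.0150 adjusted). For single neuronal types and for astrocytes the differences ran from −0.93 to 1.17, and none passed the adjusted threshold.

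Against the other 5 types, Rpl22 rose in microglia (0.73 ± 0.04) and in astrocytes and fell in cerebellar granule cells (−1.08 ± 0.04), interneurons (−0.41 ± 0.04) and layer V neurons (−0.17 ± 0.04). Between the 2 glial types its counts differed by 0.09 ± 0.05 (log2, microglia over astrocytes, edgeR adjusted p = 0.143), whereas its TPM, which is per length, was 466 to 486 in microglia and 297 to 308 in astrocytes. With effective length as an offset, Rpl22 rose by 1.49 ± 0.08 in microglia and by 0.83 ± 0.09 in astrocytes against the other 5 types. The transcripts assigned to Rpl22 differed between the types: the short Rpl22-201, of 474 bases, made up 92.2% of the gene's TPM in microglia, 85.1% in astrocytes and 66.0% in dentate gyrus granule cells, where the long Rpl22-204 and Rpl22-208, of 2051 and 2048 bases, held 16.5% ± 11.2 and 11.3% ± 6.7. The split between these long forms is uncertain, since in the batch 1 and batch 2 libraries of dentate gyrus 3 Rpl22-204 was at 10.5 and 47.0 TPM and Rpl22-208 at 40.2 and 4.18 TPM. The labelled cells also carried 1 Rpl22 allele with the tagged last exon, while reads were assigned to unmodified transcripts. Its part in the Rpl22 values was not tested. In dentate gyrus granule cells the direction of Rpl22 changed with the length setting: a log2 fold change of 0.29 ± 0.04 from counts became −0.29 once the effective length of the transcripts was taken into account.

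**Figure D3:**
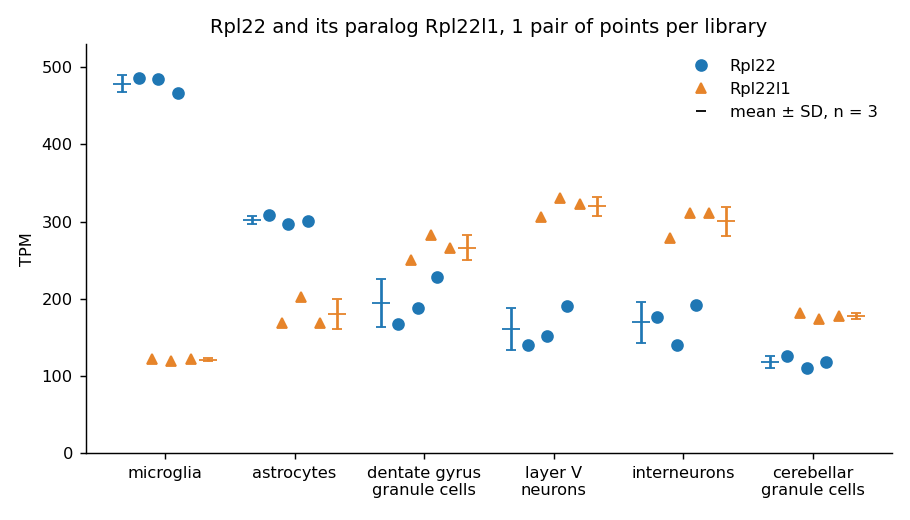
TPM of Rpl22 (blue circles) and of its paralog Rpl22l1 (orange triangles) in each of the 3 libraries of each cell type, with the mean and SD beside them. Rpl22 lies above Rpl22l1 in microglia and astrocytes and below it in the 4 neuronal types.

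Of the other paralog pairs, 6 had levels that allowed a test. Rps27l, a target of p53 whose protein differs little from Rps27, was at 140.2, 152 and 156 TPM in microglia, 101, 97.5 and 94.9 in astrocytes, 52.5, 49.3 and 38.3 in cerebellar granule cells and at 27.9 to 51.1 in the other 9 libraries. Both glial types lay above all neurons. The coding sequences of the pair are identical at 76.1% of 255 aligned bases and share no word of 31 bases. Since Rps27 was also high in glia, the ratio of the 2 did not pass for glia against neurons (0.31, exact permutation p adjusted to 0.525), and of the 7 comparisons only that of cerebellar granule cells passed, by 1.01 (adjusted p = 0.0360, permutation), where Rps27l held 16.6% ± 2.0 of the pair.

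Rpl7l1, whose protein belongs to precursors of the large subunit, was at 86.0, 83.6 and 82.4 TPM in cerebellar granule cells, 77.2, 84.1 and 73.8 in microglia and 35.6 to 62.7 in the other 12 libraries. Its log2 ratio to Rpl7 was higher by 0.92 in cerebellar granule cells (permutation, adjusted p = 0.0150) and different by −0.78 in microglia (permutation, adjusted p = 0.0400), where it was −0.61 and no longer passed with shares of estimated counts. The pair held opposite extremes there, with 16.2% ± 0.5 of its TPM in Rpl7l1 in cerebellar granule cells and 6.7% ± 0.3 in microglia. Rps4l, which has no transcript annotated as protein-coding, made up 24.3% of its pair with Rps4x in interneurons and 6.3% to 14.9% elsewhere. Its ratio to Rps4x was higher by 1.64 in interneurons (permutation, adjusted p = 0.0150). With coding transcripts only this ratio cannot be tested, since nothing of Rps4l is left. Of the 945 words of 31 bases in Rps4x, 741 also occur in transcripts of other genes, Rps4l among them. The division of reads between Rps4x and Rps4l is therefore uncertain. No comparison of Rps12l1 with Rps12 or of Rpl36al with Rpl36a passed, and Rpl36a itself ranged from 320 to 618 TPM within microglia. Of the 315 words of 31 bases in Rps27, 311 also occur in transcripts of other genes, Rps27rt among them, and these genes cannot be separated here.

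Rps24, the most abundant member, showed differences between transcripts inside 1 gene (ENSMUSG00000025290.17, chr14:24487125-24496959, plus strand). Rps24 mRNAs are known to be spliced differently at their small last exons. The gene as a whole was at 1527, 1666 and 1648 TPM in microglia and at 692 to 1030.1 TPM in the other 15 libraries. Rps24-210, a protein-coding transcript of 1613 bases, was at 48.8, 50.6 and 43.0 TPM in microglia and at no more than 1.93 TPM in any other library. It rose there by 5.04 ± 0.11 on the log2 scale (edgeR on transcripts, adjusted p = 5.71e-15, where 36.4% of the 61498 transcripts tested rose), and it was 2.9% of the gene's TPM.

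Rps24-211, an 887-base transcript without an annotated coding sequence, was the counterpart in astrocytes, at 31.2, 33.4 and 36.2 TPM there, 6.68, 8.05 and 9.45 TPM in interneurons and at most 3.89 TPM in the other 12 libraries. It rose in astrocytes by 4.11 ± 0.25 (adjusted p = 2.15e-09, 27.6% of transcripts) and made up 4.05% of the gene. Among the abundant forms, Rps24-205, of 525 bases, held 25.6% of the gene in cerebellar granule cells, 10.7% to 17.1% in dentate gyrus granule cells, layer V neurons, interneurons and astrocytes, and 5.6% in microglia, and Rps24-202, of 519 bases, ran from 69.4% in cerebellar granule cells to 89.2% in microglia. Shares of overlapping transcripts are estimates of the quantification and not counts of reads unique to each.

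**Figure D4:**
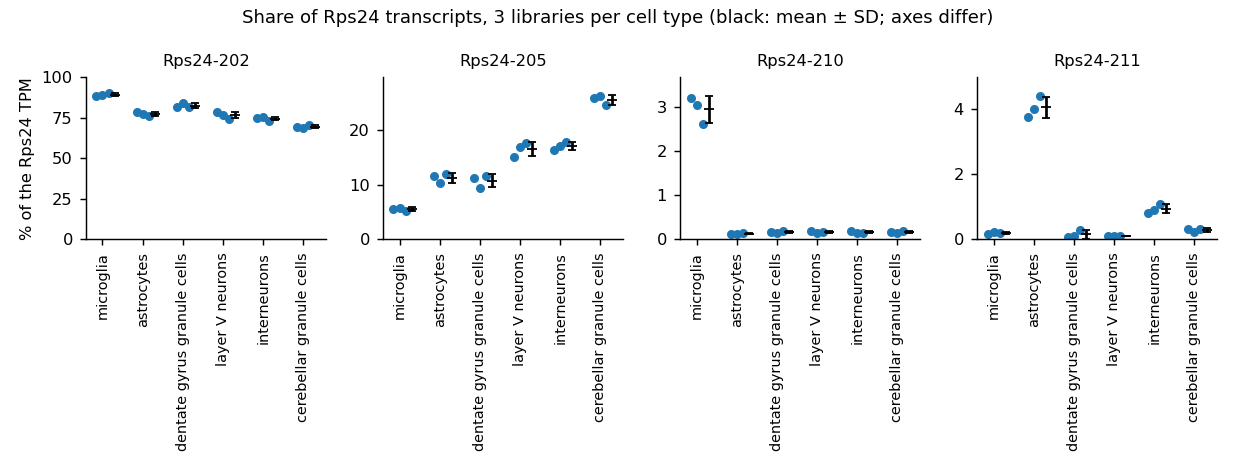
Percent of the TPM of Rps24 held by each of 4 of its transcripts, by cell type, with a point for each of 3 libraries, the mean and SD in black, and a different axis in each panel. Rps24-210 stands apart in microglia, at 2.9% on average, and Rps24-211 in astrocytes, at 4.05%.

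Transcript length also entered the values of Rps15a, a small-subunit protein. The gene was at 488, 452 and 480.4 TPM in microglia, 227, 251 and 247 in astrocytes and 155 to 269.6 in the neurons, so that per length it was highest in microglia. Its estimated counts nonetheless fell in glia, as given above. The long Rps15a-204, of 5179 bases, was at 54.8, 56.9 and 55.4 TPM in cerebellar granule cells, 41.6, 46.9 and 41.7 in the dentate gyrus and 24.7 to 33.7 in layer V neurons and interneurons, against 12.7 to 13.0 in microglia and 9.19 to 10.2 in astrocytes. It fell in glia by 1.62 ± 0.04 on the log2 scale (edgeR on transcripts, adjusted p = 3.64e-14, where 25.5% of transcripts fell). With effective length as an offset, Rps15a as a gene was higher in glia, by 0.97 ± 0.05, and lower in cerebellar granule cells, by −0.61, the opposite of both calls from counts.

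Rpl5, which binds the 5S ribosomal RNA, depended on its near-identical copies. The annotated gene (chr5:107900502-107909005, plus strand) was at 62.1, 60.7 and 64.4 TPM in the cerebellar and 54.5, 58.5 and 64.5 TPM in the dentate gyrus granule cells, against 36.7, 40.4 and 41.5 in microglia, 34.7, 38.7 and 36.8 in layer V neurons, 35.8, 38.97 and 41.1 in interneurons and 35.5, 29.0 and 25.5 in astrocytes. It was thus far below most members, and the order was unlike theirs. Genes with Gm or -ps symbols whose transcripts share much of its sequence held a mean of 482 TPM, against 44.4 TPM for the gene itself. Gene and copies together were at 1039 TPM in microglia, 511 in the dentate gyrus, 437 in astrocytes, 425 in layer V, 394 in interneurons and 351 in cerebellar granule cells. With the copies' counts added, Rpl5 rose in glia by 0.80 ± 0.03 (adjusted p = 4.16e-14) and in microglia by 1.32 and fell in cerebellar granule cells by 0.53, so that the calls above for Rpl5 hold for the annotated gene alone.

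Such copies were found for 70 of the 86 members, 412 in all. For 10 members they held more TPM than the member: Rpl27a, Rps23, Rpl10, Rpl5, Rpl31, Rpl12, Rpl28, Rpl27, Rpl10a and Rps16. The extreme was Rpl12, with 11.4 TPM for the gene and 449 TPM for its copies. All copies together took 1.03% of TPM in microglia, 0.327% in cerebellar granule cells and 0.439% to 0.505% in the other 4 types, the same extremes as the members. The tables do not show whether reads assigned to a copy came from it or from the gene.

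**Figure D5:**
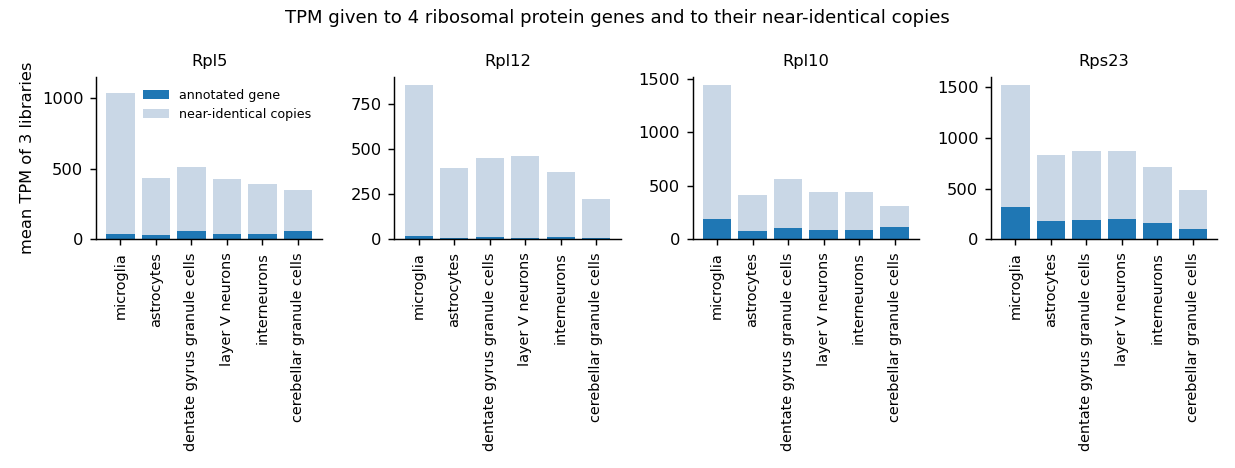
Mean TPM over 3 libraries of Rpl5, Rpl12, Rpl10 and Rps23 (dark) and of their near-identical copies (light), by cell type. For all 4 genes the copies hold most of the stacked level, and for Rpl5 the stack is highest in microglia at 1039 TPM.

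The start of each gene was examined for the TOP tract, because the members are known to share it. Windows of 20 bases before and 20 from the RefSeq start (GRCm38.p6) are shown for members that rose most in microglia and had a window (Rps12, Rps9 and Rps27) and for the paralogs Rpl22l1, Rps27l and Rpl7l1, with the longest run of a C followed only by C or T, searched from 10 bases before to 20 after the start, in capitals:
Rps12, chr10:23787190-23787229, minus strand: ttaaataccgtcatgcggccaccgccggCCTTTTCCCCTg
Rps9, chr7:3704021-3704060, plus strand: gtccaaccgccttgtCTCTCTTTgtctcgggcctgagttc
Rps27, chr3:90213629-90213668, minus strand: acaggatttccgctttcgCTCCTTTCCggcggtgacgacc
Rpl22l1, chr3:28805488-28805527, plus strand: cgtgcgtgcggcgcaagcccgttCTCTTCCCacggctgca
Rps27l, chr9:66946066-66946105, plus strand: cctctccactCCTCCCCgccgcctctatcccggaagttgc
Rpl7l1, chr17:46782637-46782676, minus strand: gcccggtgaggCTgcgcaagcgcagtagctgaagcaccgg
Inside the searched bases the run was 11 bases long in Rps12, 9 in Rps27, 8 in Rps9 and in Rpl22l1, 7 in Rps27l, where it goes on upstream of the search limit, and 2 in Rpl7l1. RefSeq gives Rps27l another start, whose window (chr9:66946393-66946432) holds a run of 4.

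A run of at least 7 bases on the transcribed strand, from 10 bases before to 20 after the start, was found in 38.5% of 78 windows of members (66 of the 86 genes matched) and in 13.5% of all 32851 windows. Among whole promoters of 300 bases, CCGGAAG, searched on both strands, was found in 34.6% of those of members and in 8.86% of all, and AAGATGG, also on both strands, in 15.4% and 6.34%. The median log2 fold change in microglia was 1.22 for the 30 genes with a run and 1.11 for the 36 without, so the run did not separate the members that rose most. The matches are descriptions of letters in a window and not sites shown to be used.

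Fau and Rack1, ribosomal proteins by other names, were higher in glia against neurons, but neither was called higher in astrocytes against the other 5 types. In a list of 3 genes that includes both, 0 were higher and 2 lower in astrocytes (40.2% and 33% of all genes). In microglia 2 were higher and 0 lower (43.4% and 37.6%). The summed level of the list was 0.246% of TPM in microglia, 0.079% in astrocytes and 0.078% to 0.112% in the neuronal types. Fau, made as a ubiquitin-like fusion, rose in glia by 0.96 and had 1821 TPM in microglia and 461 TPM in cerebellar granule cells, and Rack1, the scaffold on the small subunit, rose by 0.78. Of 19 other mRNAs with a TOP tract, among them translation factors, 12 rose and 4 fell in glia (46.8% and 36.4% of all genes), with a median of 0.20 where all genes had 0.18. Vim, an intermediate filament gene of glia, rose by 4.50 and Gas5, a host gene of small nucleolar RNAs, by 0.86, while Nap1l1 (−0.82) and Hnrnpa1 (−0.55) fell. In microglia 11 of these 19 rose and 3 fell (43.4% and 37.6% of all genes), with a median of 0.45, and in cerebellar granule cells 7 rose and 7 fell (36% and 46.1%).

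Genes for the assembly of ribosomes mostly fell in glia. Of 38 such genes 7 rose and 24 fell in glia against neurons (46.8% and 36.4% of all genes), with a median of −0.34. Sbds, which acts late on the large subunit, rose by 0.78 and Lsg1 by 0.68, while Tsr2, a partner of Rps26, fell by 1.53 and Rrp1 by 1.15. By cell type, 15 rose and 20 fell in microglia (43.4% and 37.6% of all genes), 4 rose and 31 fell in astrocytes (40.2% and 33%), and 24 rose and 9 fell in cerebellar granule cells (36% and 46.1%), where the ribosomal proteins were lowest. Of 13 genes for ribosomal RNA synthesis 6 rose and 3 fell in glia (46.8% and 36.4% of all genes). Ttf1 (0.98) and Taf1c (0.56) were highest and Rrn3 (−1.01) and Ubtf (−0.35) lowest. In microglia 10 of the 13 rose and 2 fell (43.4% and 37.6% of all genes), with a median of 0.27. In cerebellar granule cells 7 rose and 3 fell (36% and 46.1%), with a median of 0.53. The summed level of the 13 was highest in cerebellar granule cells, at 0.063% of TPM against 0.043% in microglia.

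Regulators moved both ways. Of 15 regulators of TOP mRNAs and of translation, 6 rose and 8 fell in glia (46.8% and 36.4% of all genes). Eif4ebp1 (4.17) and Eif4ebp3 (3.54), repressors of cap-dependent initiation, rose most, and Rps6kb1 (−0.94), the S6 kinase, and Larp4 (−0.72) fell most. Of 78 mitochondrial ribosomal proteins, encoded in the nucleus and distinct from the cytosolic set, 13 rose and 56 fell in glia, against the same shares of all genes, with a median of −0.27. Mrpl52 (1.19) and Mrpl24 (0.59) were at one end and Mrps26 (−0.89) and Mrpl19 (−0.87) at the other. In microglia 6 rose and 63 fell (43.4% and 37.6% of all genes), with a median of −0.50, where 81 of the 85 cytosolic members rose. In layer V neurons 60 of the mitochondrial set rose and 6 fell (37.8% and 35.4% of all genes).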

How the data were processed

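Ribosome-bound mRNA was recovered with anti-HA beads from RiboTag mice and sequenced as stranded mRNA libraries. Reads had been trimmed (cutadapt 3.5) and assigned by kallisto 0.46.2 to GENCODE M24 transcripts (GRCm38) by the authors. The tables deposited by the authors hold, for each transcript, estimated counts, TPM (a length-corrected share of the library) and an effective length, which are not gene counts. Here the estimated counts and TPM were summed per gene, and the counts were rounded for the tests. Depth was 38270477 to 71440915 estimated counts per library, so counting error was small beside the spread of replicates.

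The genes and lists were chosen with earlier results of these data known. The labels give the replicates as separate samples, and the edgeR p-values measure only the spread between these. The 18 replicates entered 1 fit (edgeR 4.0.16, quasi-likelihood, TMM scaling, filterByExpr, R 4.3.3), with Benjamini-Hochberg adjustment over 20524 genes and an SE of the fold change from its F statistic. A second fit scaled each library to the members' summed counts. Ratios of paralogs (log2, pseudocount 0.5 TPM) were tested by exact two-sided permutation of libraries, adjusted over 49 comparisons. These permutations mix the spread within and between cell types. The summed level was given without a test. Near-identical copies were genes with a Gm or -ps symbol sharing at least 100 words of 31 bases, and 25% of all words, with a member's most abundant coding transcript (GENCODE M21 sequences, the same build). Start windows and motifs used RefSeq promoters.

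The genes named are Rpl22, the paralog pairs, Rplp0, Rplp1, Rplp2, Rpsa, Rps27a, Rps19bp1, the 5 most abundant members, those failing the filter, and the 2 highest and 2 lowest called members of each comparison (5 each for glia against neurons). Others named with their values were chosen after these were seen. Rps24 and Rps15a transcripts, copies, glial types apart and within-batch fits were added after the data were seen. The edgeR test recovered 47 of 50 simulated 1.5-fold changes and all 50 of 2-fold among 19348 genes for glia against neurons, and called 8 unchanged genes. In the simulation only the changed genes differed between cell types, and all genes had the same set spread. In the data 46.8% of genes were higher and 36.4% lower in glia, a setting the simulation did not copy. A result for 1 further gene is not reported here.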

Additional observations from a re-analysis of the deposited data

How the results depend on the processing

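The number of members called stayed within 1.5 times its main value in all 112 alternatives (DESeq2, library totals without TMM, no count filter, an effective length offset, coding transcripts only, the batch 2 library of the 4 replicates sequenced again, batch as a term, the replicate block and copies added) and in all 252 refits without 1 library. Without single libraries the counts ran from 81 to 82 for glia against neurons, 35 to 57 for dentate gyrus granule cells, 41 to 53 for layer V neurons, 81 to 83 for cerebellar granule cells, 69 to 75 for interneurons, 42 to 50 for astrocytes and 81 to 83 for microglia. On the scale of the members' pool they ran from 68 to 72, 42 to 49, 49 to 59, 56 to 63, 48 to 60, 48 to 52 and 64 to 69 in the same order.

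The correlation of deviations from the group mean was taken between libraries of different cell types. Over 45 pairs with the same replicate number it was −0.10 to 0.11, with a median of 0.039. Over 90 pairs with different numbers it was −0.12 to 0.13, with a median of −0.020. Because these pairs were pooled over all cell types, they cannot decide whether libraries of single types came from the same mice. With the replicate number as a block, 81 members were called for glia against neurons, 78 higher and 3 lower, and 82 for microglia, and no count changed by over 1.5 times.

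Reversed results concerned few genes. With copies added, Rpl5 was at 0.80 in glia, −0.023 in dentate gyrus granule cells, −0.53 in cerebellar granule cells and 1.32 in microglia, and at 0.028 and 0.15 in the pool of glia and of microglia, since the copies held most of the counts. With the length offset, Rps15a was at 0.97 in glia, −0.61 in cerebellar granule cells and 0.26 in astrocytes, at 0.23 and 0.19 in the pool of glia and of astrocytes, and Rpl22 at −0.29 in dentate gyrus granule cells. Rps19bp1 in glia, not called, was at −0.062 with batch 2 libraries, −0.049 with a batch term, −0.075 with the length offset and −0.027 without the filter, and ran from −0.069 to 0.0011 without single libraries. Rpl3l in glia ran from −0.28 to 0.34, and Rps27rt from −2.31 to 1.80, reversed without astrocyte replicate 2.

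The summed level moved with its definition, with microglia highest and cerebellar granule cells lowest in each case. Over nuclear protein-coding genes it was 4.11% in dentate gyrus granule cells, 3.99% in layer V, 2.42% in cerebellar granule cells, 3.44% in interneurons, 3.797% in astrocytes and 7.20% in microglia, and as a share of estimated counts 0.874%, 0.920%, 0.524%, 0.792%, 0.913% and 1.86%. With copies added it was 4.00%, 3.78%, 2.48%, 3.49%, 3.61% and 7.40%. From layer V onwards it was 3.08%, 2.02%, 2.88%, 2.93% and 5.94% with coding transcripts only, and 3.56%, 2.33%, 3.31%, 3.38% and 6.89% with named pseudogenes added.

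Among paralog ratios with estimated counts, Rpl22l1 in the dentate gyrus was at −0.076, Rps27rt in microglia at −1.12, Rpl7l1 in microglia at −0.61, no longer past the threshold, Rpl36al at 0.70 in cerebellar granule cells and −0.65 in astrocytes, now past it, and so were Rps4l in glia at −1.08 and Rps12l1 in microglia at −3.12. With coding transcripts only, neither Rps4l nor Rps12l1 had a transcript left, so their ratios held the pseudocount alone over Rps4x or Rps12. These values follow Rps4x and Rps12 and cannot test the paralogs. For Rps4l they were −1.05 in glia, −1.61 in microglia, 0.95 in cerebellar granule cells and 0.31 in interneurons. For Rps12l1 they were −1.46 in glia, −2.41 in microglia, 0.077 in the dentate gyrus and 0.45 in interneurons. With a pseudocount of 0.1 TPM Rps12l1 was at 0.29 in glia and −0.12 in cerebellar granule cells. With batch 2 libraries Rps27rt was at 0.47 in layer V, −0.30 in cerebellar granule cells and −0.082 in microglia. The cause of the other changes was not tested.

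Leaving out a library of a cell type leaves 2, and the exact test then has fewer arrangements. Without single libraries Rpl22l1 in microglia ran from −2.50 to −2.35, Rps27l in cerebellar granule cells from 0.93 to 1.13, Rpl7l1 from 0.88 to 0.96 in cerebellar granule cells, −0.82 to −0.73 in microglia and −0.10 to 0.0046 in astrocytes, and Rps4l from −1.19 to −0.95 in glia and 1.56 to 1.70 in interneurons. Rpl36al ran from −0.37 to 0.084 in the dentate gyrus and −0.16 to 0.24 in layer V, and Rps12l1 from −1.26 to 0.27 in glia and −0.40 to 2.97 in layer V. Rps27rt ran from −1.16 to 0.35 in layer V, −0.10 to 1.46 in cerebellar granule cells, −0.50 to 1.56 in interneurons and −0.54 to 0.87 in microglia. None of the ratios that changed sign was called. In 27 of the paralog refits without 1 library a called ratio no longer passed the threshold, and in 3 a further ratio passed. Depth limited only the rarest members, Rpl3l, Rpl10l and Rpl39l.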
